A study of Mus musculus with 40 samples.

Results

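The Hox gene clusters were followed through ChIP-seq of small pre-B cells, B cell precursors of the bone marrow that recombine their immunoglobulin light chain genes. The genes counted here are 38 members of the Hoxa, Hoxb, Hoxc and Hoxd clusters. A region of a deposited count table was taken as a Hox region when its nearest gene, by the distances in that table and within 200 kb, was one of the 38. That rule found 321 of the 863771 regions in the tables of 7 targets. Of the 38 genes, 35 had at least 1 such region. Hoxa11, Hoxb4 and Hoxd4 had none. Hoxb1, Hoxb13, Hoxc4, Hoxc6, Hoxc8 and Hoxc10 had at least 1 region in all 7 tables.

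Small pre-B cells of 3 kinds were profiled. KO cells came from Brwd1-/- mice, which lack BRWD1, a bromodomain protein that binds acetylated histones. ATPneg cells were WT cells kept for 2 h in 126 nM oligomycin A, an inhibitor of the mitochondrial ATP synthase. WT cells came from WT mice. All were primary cells sorted by flow cytometry, and in such bulk samples a share of cells and a level per cell cannot be told apart. Neither age nor strain is given, nor which part of Brwd1 is deleted, so the ChIP reads check no genotype label. The antibodies were against CTCF, a DNA-binding protein of insulators, against 2 parts of cohesin (RAD21, SMC3), against NIPBL and WAPL, which load and release cohesin, and against H3K27ac and H3K4me1. The 40 samples were 36 ChIP libraries, with 2 biological replicates per target and condition per the labels, and 4 inputs. ATPneg exists for NIPBL, RAD21, SMC3 and WAPL only, and those libraries entered as peak lists, so their depth is unknown.

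Hox genes encode homeodomain transcription factors that specify position along the body axis and, in blood, are active in stem and progenitor cells and are turned down as lymphoid cells mature. Each cluster lines up its genes in the order of their expression domains, and CTCF sites between the genes separate active from Polycomb-repressed stretches. Cohesin is a ring of SMC3, RAD21 and partner proteins that extrudes chromatin loops and is held up at CTCF sites. NIPBL drives its loading and extrusion, and WAPL releases it. H3K4me1 marks enhancers and the flanks of active promoters, and H3K27ac marks active enhancers and promoters.

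The Hoxa10 and Hoxd3 promoters belong to genes with results here and are shown with matches to the CTCF motif. Hoxa10 had a CTCF site 9 bp downstream of the start in the deposited annotation, with a peak in every CTCF library. The Hoxd3 promoter had a region in every table except that of SMC3, and its H3K27ac region was called higher in KO cells. Unlike the Hoxa10 site, its CTCF region had a peak in CTCF WT 2 alone, and it held 106 input reads per kb. Both run 5′ to 3′ on the strand of the gene, from 250 bases before the start to 50 bases after it, from RefSeq on GRCm38.p6. Hoxa10 is at chr6:52240805-52241104 on the minus strand, as 1 of its 2 listed promoters; which of them the deposited annotation used is not stated. The promoter of Hoxd3 is at chr2:74711743-74712042 on the plus strand. Capitals mark AGGGGGC in Hoxa10, a stretch of the CTCF consensus chosen after the promoters were seen, and the reverse complement of CCNNNAGNNGGC in Hoxd3, the CTCF core with its variable positions left free.
Hoxa10: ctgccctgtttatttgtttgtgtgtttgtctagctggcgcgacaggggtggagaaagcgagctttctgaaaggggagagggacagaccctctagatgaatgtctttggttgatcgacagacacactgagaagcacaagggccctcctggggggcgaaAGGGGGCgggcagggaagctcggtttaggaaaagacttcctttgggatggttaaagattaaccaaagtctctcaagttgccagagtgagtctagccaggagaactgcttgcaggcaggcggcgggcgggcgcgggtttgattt
Hoxd3: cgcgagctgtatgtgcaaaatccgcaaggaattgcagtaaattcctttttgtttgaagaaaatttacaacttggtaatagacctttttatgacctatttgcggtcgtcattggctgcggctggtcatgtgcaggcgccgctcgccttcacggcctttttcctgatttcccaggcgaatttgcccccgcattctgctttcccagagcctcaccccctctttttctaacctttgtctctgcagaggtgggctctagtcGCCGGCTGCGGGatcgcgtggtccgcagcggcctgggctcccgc
Of the 38 genes, 22 had a promoter in the RefSeq table, 24 promoters in all. Searched on both strands, CCNNNAGNNGGC was in 4 of these 24 (Hoxd11, Hoxd3, Hoxa11 and Hoxc4) and in 8.61% of the 32851 promoters of the table. AGGGGGC was in 2 of the 24 (Hoxd13 and Hoxa10) and in 10.6% of all. The 2 searches do not overlap in these promoters, and a match is a description of the letters, not a site. From the start, the marked match was at base -93 in Hoxa10, whose CTCF site lay 9 bp downstream. In Hoxd3 the match was at base 7, while the CTCF region lay 189 bp upstream. By these distances neither match is within the CTCF region of its gene, though the starts used may differ. The regions below are in mm9 and were not carried over to the promoter table's build.

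Several libraries stood apart before any Hox region was compared. Reads in the regions of a target ran from 3784506 in NIPBL KO 2 to 30496715 in WAPL KO 1. For NIPBL, RAD21 and SMC3 the KO libraries had between 3784506 and 7415143 reads, against 15416715 to 24962590 in the WT libraries, so for these targets genotype and depth cannot be told apart. CTCF WT 2 held 17055094 reads, against 3880112 to 5033230 in the other CTCF libraries. Replicates of RAD21 KO, CTCF WT and SMC3 WT differed most, with a chi-square per degree of freedom between the 2 replicates of 24.8, 25.8 and 20.2, while the marks stayed between 1.06 and 1.12. Of the CTCF sites of the series with a peak in all 4 CTCF libraries, the RAD21 and SMC3 lists touched 2.11% to 62.9% in KO cells, 39.8% to 95.3% in ATPneg cells, and 1.72% to 2.23% in WT cells. The genotype field of the H3K27ac and H3K4me1 KO samples reads WT, against their titles and descriptions, which were followed. Some peak lists carry peak names of another sample (H3K27ac KO, H3K4me1 WT, NIPBL KO 2 and NIPBL WT 1).

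The labelled cell type was checked by the width of the marks over marker genes. Of the 12 pre-B marker genes, 10 had an H3K4me1 region over 1000 bp, with a median widest region of 1965.5 bp and a maximum of 9710 bp at Cd79b, which encodes a chain of the B cell receptor. The same held for 1 of 10 stem and progenitor markers, 2 of 8 myeloid markers with a region, 2 of 8 T cell markers and 0 of 6 erythroid markers with a region. Over all genes with a region the share was 17.5%. H3K27ac separated the lists less, with a region over 1000 bp at 3 of 10 pre-B markers with a region. None of the other markers had one, against 3.79% of all genes with a region.

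CTCF was compared first, because its sites divide the clusters. The table held 45 Hox CTCF regions near 29 genes, of 81440 in all. They fell into 4 groups by the libraries with a peak there. A peak in all 4 CTCF libraries, KO and WT, was found at 12 Hox regions, as at 15616 regions (19.2%) of the series. The other groups were 6 regions with peaks in KO libraries only, 8 with a peak in CTCF WT 1 alone and 19 with a peak in CTCF WT 2 alone.

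The 12 CTCF sites shared by all 4 libraries lay in all 4 clusters and at recurring places. Upstream of a gene in the middle of each cluster lay the sites of Hoxa7 (chr6:52171451-52172109, 2878 bp upstream), Hoxb8 (chr11:96140044-96140621, 2598 bp), Hoxc8 (chr15:102817811-102818289, 2681 bp) and Hoxd8 (chr2:74540079-74540758, 2788 bp). Sites at a start were those of Hoxa10 (chr6:52190309-52190844, 9 bp downstream), Hoxc10 (chr15:102796829-102797306, at the start), Hoxb5 (chr11:96164309-96164812, 14 bp upstream) and Hoxc5 (chr15:102843883-102844394, 45 bp upstream). The remaining sites were at Hoxb6 (chr11:96155788-96156484, 4001 bp upstream), Hoxd12 (chr2:74510979-74511450, 1620 bp upstream), Hoxa3 (chr6:52161254-52161950, 1116 bp downstream) and Hoxa13 (chr6:52206935-52207351, 3523 bp downstream). Per the deposited annotation the Hoxa3, Hoxa10 and Hoxc10 sites lie in the body of their gene and the other 9 in no gene. The sites were 417 to 697 bp long, with a median of 524 bp, and the same 12 were found without CTCF WT 2.

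ChIP reads at the 12 sites stood furthest above input in the KO libraries and in WT 1. A library's share of reads in a region over the share in the input of its genotype had a median of 6.15 in KO 1 and 6.73 in KO 2, against 4.76 in WT 1 and 1.23 in WT 2. Input at these sites was sparse, with 20.5 to 84.3 reads per kb. At Hoxa7 the regions held 43.5 and 41.9 CPM in KO cells, against 32.1 and 8.18 CPM in WT cells, where CPM is the read count scaled to the library's reads in all regions of the target, with TMM factors. At Hoxa10 they held 27.7 and 30.2 CPM in KO cells, against 16.7 and 5.05 CPM in WT cells. At all 12 sites both KO libraries lay above WT 1, and WT 1 above WT 2. The groups thus did not overlap, as at 32 of the 42 tested Hox CTCF regions, and none of the 12 was called. The share without overlap over all CTCF regions was not counted. Higher values in KO cells were not particular to Hox genes. Of all CTCF regions with peaks in both KO and WT libraries, 98.8% had a positive log2 fold change of KO over WT. Among all CTCF regions, 0.00792% were called higher and 0.0317% lower in KO cells.

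**Figure D1:**
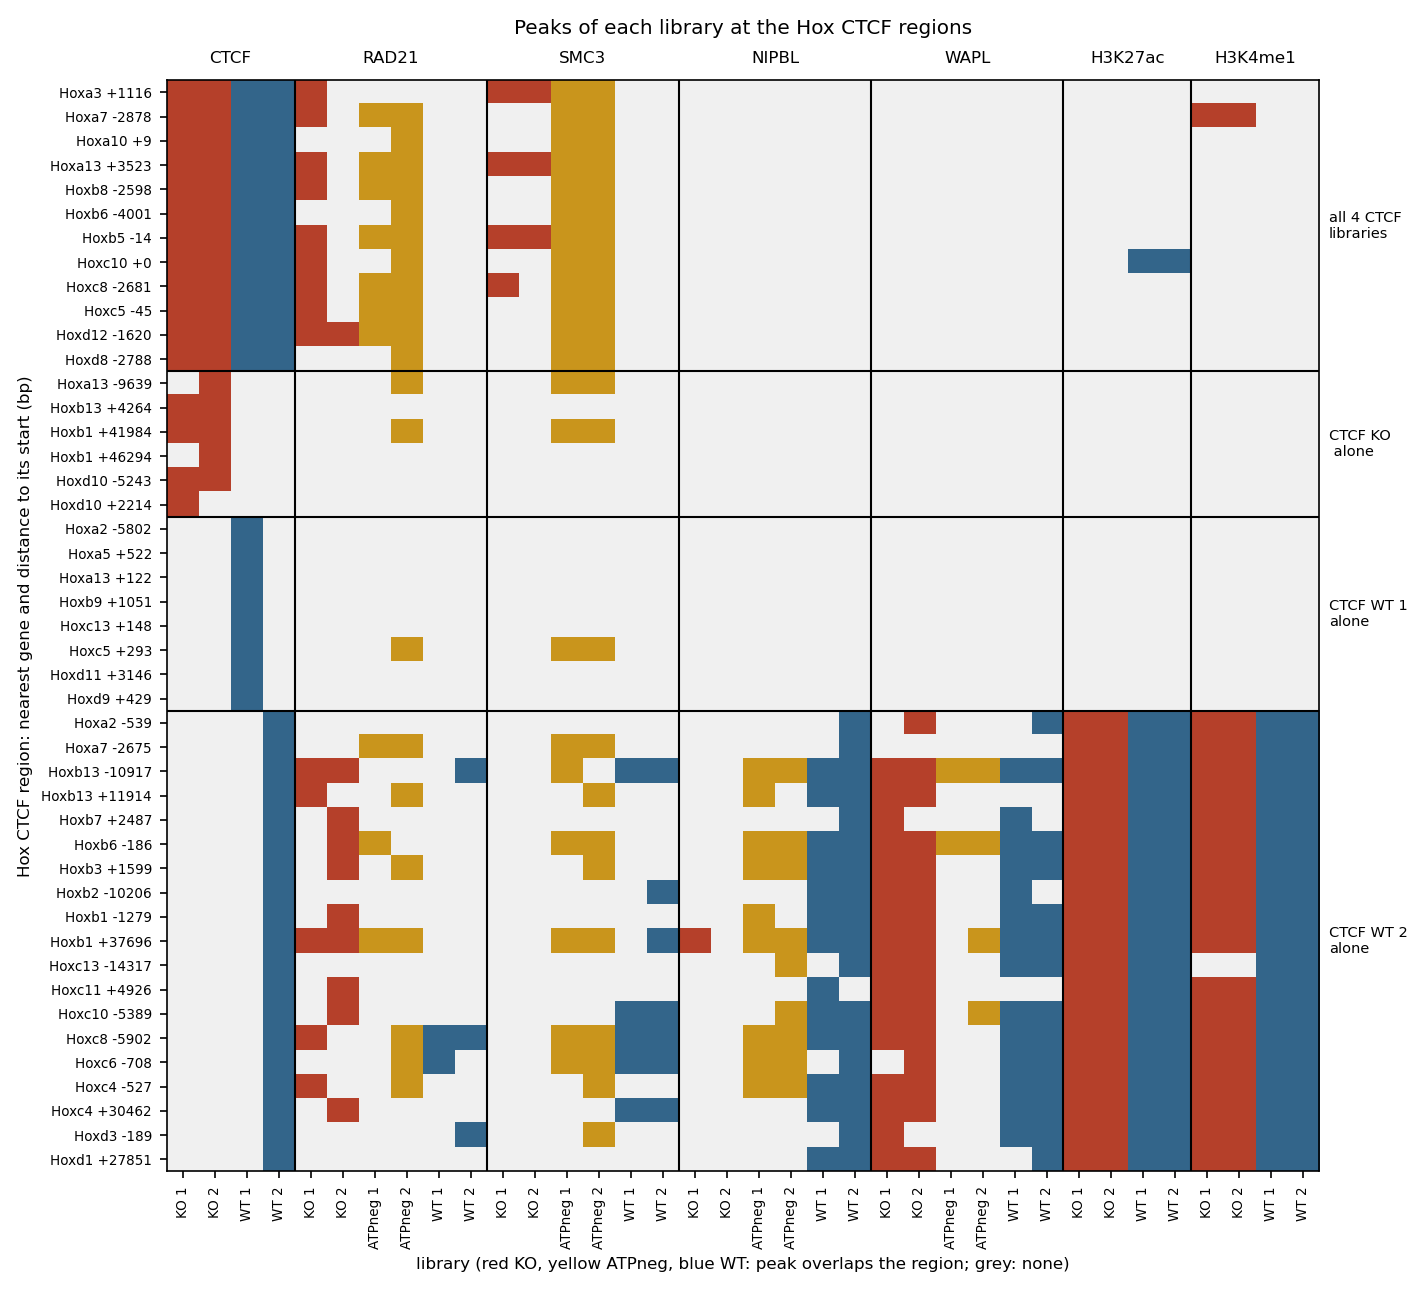
Peaks at each of the 45 Hox CTCF regions (rows, by nearest gene and signed distance to its start in bp) in each library (columns, grouped by target; red KO, yellow ATPneg, blue WT, grey no peak). The 12 regions with CTCF peaks in all 4 libraries also held SMC3 peaks in both ATPneg libraries and in no WT library, and held no peak of NIPBL or WAPL.

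The 19 regions with a peak in CTCF WT 2 alone were of another kind. They were short, with a median of 136 bp, and dense in input, with a median of 337 input reads per kb. Reads over input had medians of 0.583 and 0.530 in KO cells, against 0.719 and 1.05 in WT cells. Among all CTCF regions, 60.5% had a peak in CTCF WT 2 alone. Both marks had peaks there: H3K27ac at 19 of the 19 in every KO and WT library, and H3K4me1 at 18 in both KO libraries and 19 in both WT libraries. At the 12 shared sites the marks were nearly absent, with H3K27ac peaks at 0 in KO and 1 in WT libraries (Hoxc10), and H3K4me1 peaks at 1 in KO (Hoxa7) and 0 in WT libraries. The Hoxb1 region at chr11:96264769-96264892, 37696 bp downstream of the start, was the densest Hox CTCF region, with 35.1 and 26.9 CPM in KO cells, against 56.9 and 64.9 CPM in WT cells, and it held 1710 input reads per kb. A count of over 100 input reads per kb is called dense input from here on, and 19 of the 45 Hox CTCF regions had it.

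The 8 regions with a peak in CTCF WT 1 alone lay inside Hox genes, 7 of them in the gene that was also the nearest. They included Hoxa13 (122 bp downstream of the start), Hoxc13 (148 bp), Hoxc5 (293 bp), Hoxd9 (429 bp) and Hoxa5 (522 bp). At the Hoxa13 region there were 1.64 and 3.27 CPM in KO cells, against 17.8 and 1.6 CPM in WT cells. WT 1 alone was high there, and WT 2 lay with the KO libraries. Of all CTCF regions 2.22% were of this kind, against 17.8% of the Hox regions, a difference that was not tested.

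The 6 regions with peaks in KO libraries only lay near Hoxb1, Hoxb13, Hoxd10 and Hoxa13, and input was sparse there, at 17.7 to 52.5 reads per kb. The one 41984 bp downstream of the Hoxb1 start (chr11:96269057-96269388) held 9.44 and 10.2 CPM in KO cells, against 4.70 and 1.28 CPM in WT cells, with no overlap (adjusted p = 0.311). Over the 6, reads over input had medians of 2.85 and 3.41 in KO cells, against 2.46 and 0.661 in WT cells, so the reads of WT 1 were closer to those of KO cells than its peak list was.

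No Hox CTCF region was called between KO and WT. The edgeR quasi-likelihood test with Benjamini-Hochberg adjustment over all regions called 0 of 42 tested. The smallest adjusted p of a Hox region was 0.311. Without adjustment, 6 of the 42 had p under 0.05, and DESeq2 called 0. The median log2 fold change of KO over WT was -0.48 for the Hox regions and -0.37 for all regions, and -0.04 and 0.07 with background scaling. Without CTCF WT 2, 14 Hox regions were called, 3 higher and 11 lower in KO cells, where 9.58% of all CTCF regions were called higher and 12.8% lower. In that fit the 8 regions of the WT 1 group had a median log2 fold change of -2.26. They were grouped by a peak in WT 1 and none in KO cells, so this direction was fixed by the grouping. Without CTCF WT 1, 35 were called, 20 higher and 15 lower, where 38.3% of all CTCF regions were called higher and 45.8% lower. In both fits the WT side is 1 library, taken to vary like the KO libraries, and either WT library decides the count for Hox regions and for the series.

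SMC3 separated the conditions at the 12 CTCF sites. SMC3 peaks lay at 4 and 3 of the 12 in KO cells, at 12 and 12 in ATPneg cells, and at 0 and 0 in WT cells. A count of 0 of 12 allows a share of up to 25%, and such limits cover counting error only. Over all 15616 sites of this kind the shares were 62.8% and 62.9% in KO cells, 95.3% and 94.5% in ATPneg cells, and 1.72% and 2.23% in WT cells. The Hox share in KO cells was thus 33.3% and 25%, with exact binomial intervals of 9.92% to 65.1% and 5.49% to 57.2%; the difference from all sites was not tested. The 3 sites with SMC3 peaks in both KO libraries were at Hoxb5, Hoxa3 and Hoxa13, and the Hoxc8 site had a peak in KO 1.

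**Figure D2:**
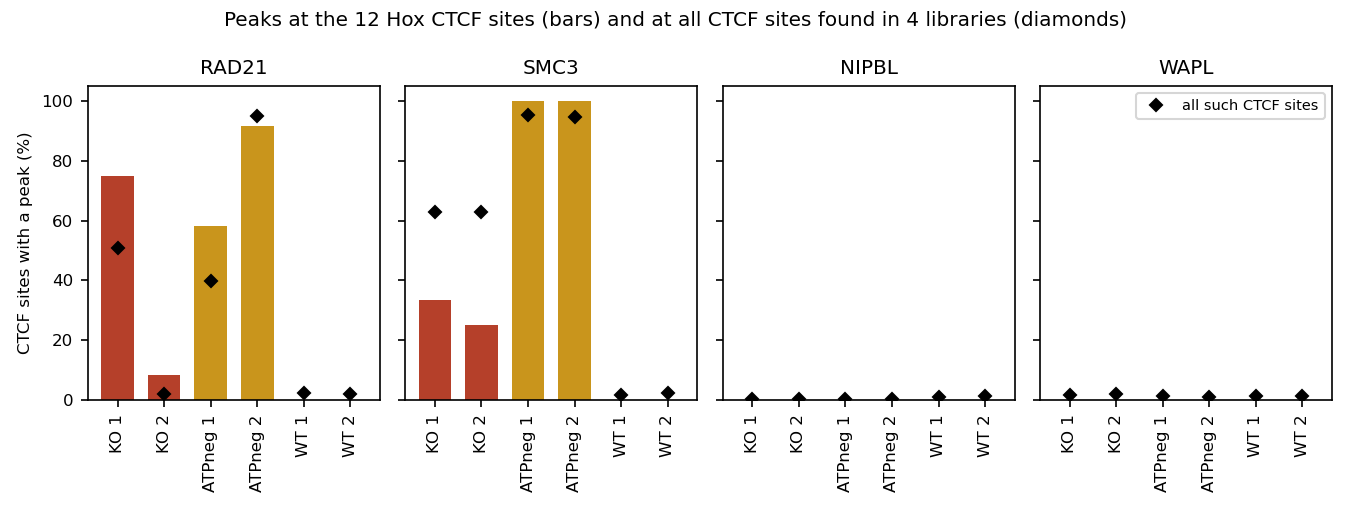
Share of CTCF sites (%) with a peak of RAD21, SMC3, NIPBL or WAPL in each library, for the 12 Hox sites (bars; red KO, yellow ATPneg, blue WT) and for all 15616 sites with CTCF peaks in 4 libraries (diamonds). SMC3 reached 100% of Hox sites in both ATPneg libraries and 0% in both WT libraries.

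SMC3 reads were higher in both KO libraries than in WT cells at the 4 sites with a KO peak. This included the Hoxc8 site, where KO 2 had no peak. The SMC3 region at Hoxa13 (chr6:52206989-52207271) held 12.6 and 14 CPM in KO cells, against 0.979 and 0.688 CPM in WT cells, a log2 fold change of 3.98 ± 0.29 (SE, n = 2 libraries each; adjusted p = 0.000571). At Hoxa3 (chr6:52161485-52161910) there were 10.5 and 16.7 CPM in KO cells, against 0.914 and 0.875 CPM in WT cells, a log2 fold change of 3.91 ± 0.34 (adjusted p = 0.000638). Both KO libraries lay above both WT libraries at these sites. The region 2806 bp upstream of Hoxc8 (chr15:102817834-102818164) held 11.0 and 12 CPM in KO cells, against 0.914 and 0.5 CPM in WT cells, a log2 fold change of 4.0 ± 0.35 (adjusted p = 0.000663). At Hoxb5 (chr11:96164415-96164662) there were 10.3 and 12 CPM in KO cells, against 1.5 and 0.688 CPM in WT cells, a log2 fold change of 3.34 ± 0.41 (adjusted p = 0.00157). Reads over input had medians of 4.45 and 5.46 at these 4 regions in KO cells, against 0.391 and 0.309 in WT cells, so the WT libraries lay below input there.

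A limit of the tables bears on these calls and on those of every other target. A table lists only places with a peak in a KO or WT library, and no SMC3 WT library had a peak at the 12 sites, so the 4 regions had to be higher in KO cells and the other 8 sites have no SMC3 counts. At CTCF sites of this kind the test called 98.1% of 11674 SMC3 regions of the series higher in KO cells, and the Hox sites are 4 such cases. SMC3 depth was 4010016 and 4242112 reads in KO cells, against 17667209 and 15416715 in WT cells, and its part in the result was not tested.

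Across the 13 SMC3 regions near Hox genes, of 83467 in all, 6 were called higher in KO cells (46.2%) and 0 lower. The series' shares were 22.1% higher and 18.1% lower. The 4 regions at CTCF sites, listed through KO peaks alone, had to be higher, so the count of 6 is not to be read against these shares. The other 9 were listed through WT peaks alone, and of these 2 were called higher and 0 lower, at a median log2 fold change of 0.62. Among all SMC3 regions listed through WT peaks alone, 3.97% were called higher and 22.4% lower, with a median of -0.49. All 9 Hox regions also lay on dense input, with 121.6 to 1862.5 input reads per kb. Of the series' SMC3 regions with dense input 19.7% were called higher and 3.35% lower, with a median of 0.34, nearer to the Hox values. Neither difference was tested. No SMC3 region lay near a Hoxd gene. The other 2 called regions were downstream of Hoxb1 on dense input. The one at 37693 bp (chr11:96264766-96264885) held 52.2 and 51.6 CPM in KO cells, against 21.3 and 24.6 CPM in WT cells, a log2 fold change of 1.18 ± 0.14 (adjusted p = 0.00137). The one at 42811 bp (chr11:96269884-96269993) held 18.4 and 16.1 CPM in KO cells, against 6.53 and 6.38 CPM in WT cells, a log2 fold change of 1.41 ± 0.19 (adjusted p = 0.00224). They held 1862.5 and 581.8 input reads per kb.

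RAD21, the other cohesin subunit measured, did not behave alike in its 2 KO libraries. RAD21 peaks lay at 9 and 1 of the 12 CTCF sites in KO cells, at 7 and 11 in ATPneg cells, and at 0 and 0 in WT cells. The shares over all such sites were 50.7% and 2.11% in KO cells, 39.8% and 95.1% in ATPneg cells, and 2.23% and 1.98% in WT cells. The Hoxd12 site was the one with a peak in both KO libraries. Both ATPneg libraries had a peak at the sites of Hoxa7, Hoxa13, Hoxb5, Hoxb8, Hoxc5, Hoxc8 and Hoxd12.

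The RAD21 reads showed the same split. The region upstream of Hoxa7 (chr6:52171506-52172018) held 18.1 and 1.25 CPM in KO cells, against 2.05 and 1.92 CPM in WT cells, a log2 fold change of 2.29 ± 1.15 (adjusted p = 0.162). KO 1 was high there, and KO 2 lay below both WT libraries. At the Hoxa13 site there were 13.2 and 1.25 CPM in KO cells, against 1.38 and 1.65 CPM in WT cells, and at the Hoxb8 site 12.1 and 0.973 CPM in KO cells, against 1.25 and 1.70 CPM in WT cells. At the Hoxd12 site there were 5.77 and 2.22 CPM in KO cells, against 0.918 and 0.759 CPM in WT cells, where the groups did not overlap (adjusted p = 0.0537). Over the 9 RAD21 regions at the sites, reads over input had medians of 5.72 in KO 1 and 0.492 in KO 2, against 0.662 and 0.793 in WT cells. Of these, 8 were tested and none was called, at log2 fold changes of 1.21 to 2.31.

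**Figure D3:**
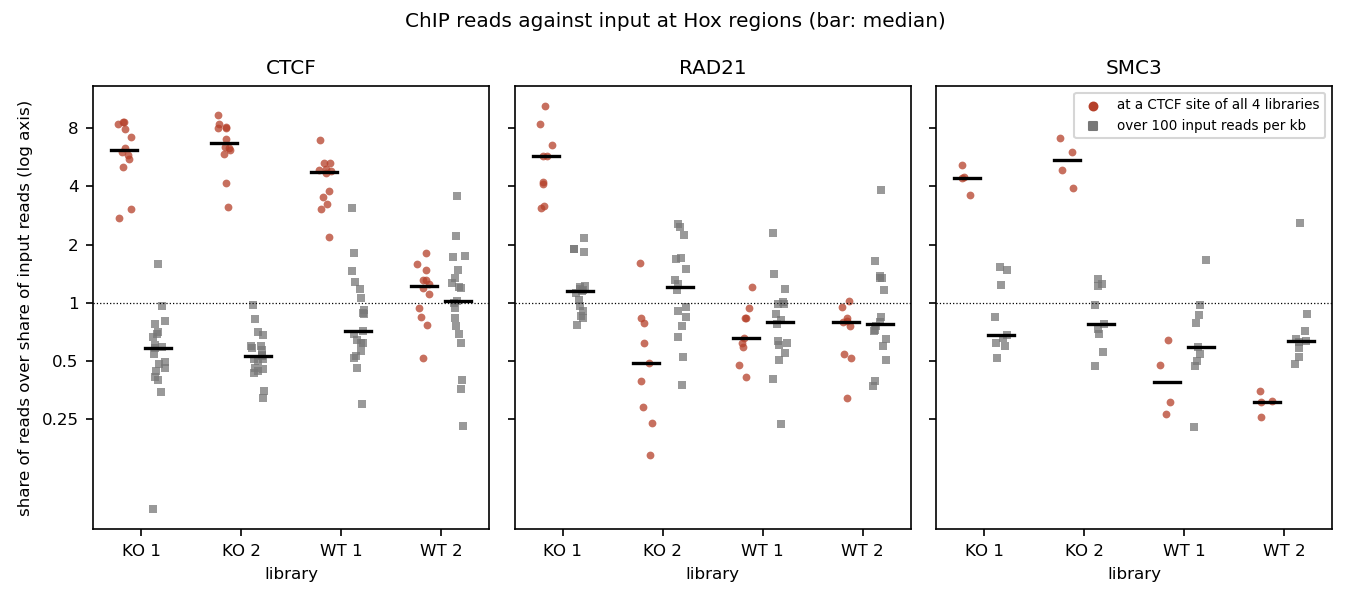
Share of ChIP reads in each Hox region over its share of input reads (log axis) by library, for CTCF, RAD21 and SMC3, with regions at the 12 CTCF sites as red circles, regions of dense input as grey squares and medians as bars. At the sites RAD21 has a median of 5.72 in KO 1 and 0.492 in KO 2, and SMC3 has medians of 4.45 and 5.46 in KO and of 0.391 and 0.309 in WT.

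The whole RAD21 set was 25 Hox regions near 19 genes, of 88793 regions. RAD21 peaks lay at 14 and 12 of the 25 in KO cells, against 2 and 3 in WT cells, and 21 of the 25 were listed through KO peaks alone. The 24 tested regions all had a positive log2 fold change, a direction that this listing favours: 95.6% of all RAD21 regions listed through KO peaks alone were positive too. Of the 24, 1 was called higher (4.17%) and 0 lower, while 2.3% of all RAD21 regions were called higher and 21.1% lower. The called region lay 11912 bp downstream of Hoxb13, the most posterior gene of its cluster, on dense input (chr11:96067588-96067697, 509 input reads per kb). It held 13 and 13.6 CPM in KO cells, against 2.46 and 4.37 CPM in WT cells, a log2 fold change of 1.96 ± 0.36 (adjusted p = 0.0433). It too was listed through KO peaks alone. The log2 fold change was 1.5 without WT 1 and 2.87 without WT 2, where the call was lost at adjusted p = 0.334 and 0.360. It was also lost with the replicate block, with no filter and with input-subtracted counts, at adjusted p = 0.0879, 0.140 and 0.253. The count of called Hox regions was 14 without KO 1 and 16 without KO 2, all higher, in fits that called 37288 and 49148 RAD21 regions of the series, against 19851 with all libraries. The values were set beside those of like places. RAD21 regions of the series had a median log2 fold change of 1.85 at CTCF sites of the same kind (2.19 for the Hox regions there) and of 0.66 on dense input (0.82 for the Hox regions).

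**Figure D4:**
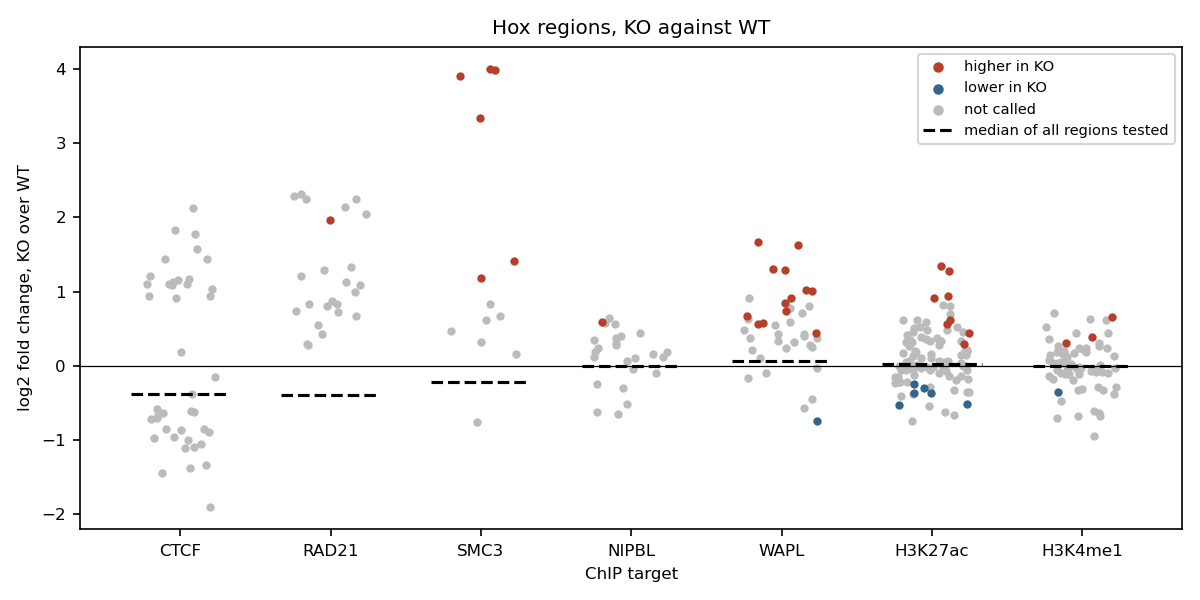
Log2 fold change of KO over WT for every tested Hox region of each target (points; red called higher, blue called lower, grey not called) beside the median of all regions of that target. RAD21, SMC3 and WAPL regions lie mostly above 0, but 21 of the 25 RAD21, 4 of the 13 SMC3 and 19 of the 39 WAPL regions were listed through KO peaks alone, which favours that direction.

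NIPBL and WAPL peaks were found at none of the 12 CTCF sites in any library, KO, ATPneg or WT. Over all sites of this kind the shares were 0.301% to 1.34% for NIPBL and 0.986% to 2.13% for WAPL. Their Hox regions lay instead on dense input, 22 of 25 for NIPBL and 32 of 39 for WAPL. The series' shares on dense input were 68.2% and 55.7%.

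For NIPBL, 1 of 25 regions near 16 genes was called higher in KO cells (4%) and 0 lower, against 0.995% higher and 0.63% lower among the 61586 regions tested. It was the place 37693 bp downstream of Hoxb1 again (chr11:96264766-96264896), with 68.0 and 74.8 CPM in KO cells, against 48.7 and 46.2 CPM in WT cells, a log2 fold change of 0.59 ± 0.11 (adjusted p = 0.0316). The call was lost when any 1 of the 4 libraries was left out, while the log2 fold change stayed between 0.52 and 0.66. The median log2 fold change of the 25 was 0.18, and -0.05 when scaled by library totals, a scaling under which the called regions were 3, all lower. Under that scaling the median of all NIPBL regions was -0.23, and 6747 of them were called, against 1001 in the main fit.

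For WAPL, 13 of 39 regions near 17 genes were called higher in KO cells (33.3%) and 1 lower (2.56%), against 13.1% higher and 27.6% lower among the 126089 regions tested. The count depends on the scaling and the tool: it was 36 higher and 0 lower with background scaling, 21 and 0 with library totals, 5 and 0 with input-subtracted counts, and 4 and 0 with DESeq2. The WAPL regions of the series called in these fits were 80097, 59343, 26754 and 24682, against 51327 in the main fit, so the Hox counts moved with those of the series. Of the 39, 19 were listed through KO peaks alone, with 8 higher and 1 lower, and 19 through both KO and WT peaks, with 5 higher. Among all WAPL regions so listed, 25% and 17.6% were called higher. On dense input alone the series gave 20.5% higher and 2.32% lower, against 37.5% and 3.12% for the Hox regions, a difference that was not tested. Of the 13 higher regions 12 were on dense input, as was the lower one. The region 3879 bp upstream of Hoxd1 (chr2:74597048-74597158) held 2.01 and 1.58 CPM in KO cells, against 0.629 and 0.495 CPM in WT cells, a log2 fold change of 1.67 ± 0.29 (adjusted p = 0.0106). The one 8111 bp downstream of Hoxd1 (chr2:74609149-74609266) held 6.13 and 5.40 CPM in KO cells, against 1.94 and 2.77 CPM in WT cells, a log2 fold change of 1.29 ± 0.25 (adjusted p = 0.0142). KO libraries lay above WT libraries at both, without overlap, and the first was not called by DESeq2 (adjusted p = 0.0635). Both were listed through KO peaks alone, which favours that direction, and both lay below input in every library. Reads over input were 0.473 and 0.373 in KO cells at the first, against 0.195 and 0.146 in WT cells. At the second they were 0.979 and 0.867 in KO cells, against 0.294 and 0.402 in WT cells.

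Smaller WAPL differences were called at Hoxc11, Hoxb1 and Hoxc10. The region 4923 bp downstream of the Hoxc11 start (chr15:102789881-102790072) held 4.18 and 4.16 CPM in KO cells, against 1.89 and 2.23 CPM in WT cells (log2 fold change 1.02 ± 0.22), which DESeq2 did not call (adjusted p = 0.0735). The 2 regions downstream of Hoxb1, at 42807 and 37692 bp, had log2 fold changes of 0.92 ± 0.18 and 0.58 ± 0.09, and the one 5332 bp upstream of Hoxc10 had 0.85 ± 0.16. The regions at Hoxc11 and at 42807 bp, and the lower one below, were listed through KO peaks alone. Reads over input at Hoxc11 were 0.863 and 0.863 in KO cells, against 0.243 and 0.275 in WT cells. Those at Hoxb1 and Hoxc10 ran from 1.21 to 1.64 in KO cells. The lower region was 8172 bp downstream of Hoxc8 (chr15:102829143-102829253), with 6.07 and 4.66 CPM in KO cells, against 9.39 and 8.51 CPM in WT cells (log2 fold change -0.74 ± 0.20, adjusted p = 0.0346). Without KO 1 or without KO 2, 0 WAPL regions near Hox genes were called.

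A place downstream of Hoxb1 recurred in every table and gave the densest Hoxb region of each. It began 37668 to 37696 bp past the start, was 120 to 158 bp long in the tables of CTCF, RAD21, SMC3, NIPBL and WAPL, and held 1262.8 to 1862.5 input reads per kb. SMC3, NIPBL and WAPL were called higher in KO cells there. RAD21 held 43.2 and 26.7 CPM in KO cells, against 22.1 and 17.8 CPM in WT cells (adjusted p = 0.113). H3K27ac was called lower, and H3K4me1 held 43.7 and 43.5 CPM in KO cells, against 44.3 and 42.6 CPM in WT cells (adjusted p = 0.961).

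The place downstream of Hoxd1 was the densest Hoxd region in 5 tables, and of these H3K27ac alone was called there. NIPBL at 21845 bp held 31.1 and 37.5 CPM in KO cells, against 51.9 and 46.3 CPM in WT cells, without overlap (log2 fold change -0.52 ± 0.13, adjusted p = 0.0714). RAD21 at 21775 bp held 22 and 46.7 CPM in KO cells, against 22 and 19.5 CPM in WT cells (adjusted p = 0.199), and WAPL at 21844 bp held 34.8 and 36.3 CPM in KO cells, against 44.5 and 31.6 CPM in WT cells (adjusted p = 0.674). The KO replicates of RAD21 and the WT replicates of WAPL differed from each other there.

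The calls were then counted by cluster. SMC3 calls, all higher, were 2 of 2 in Hoxa, 3 of 6 in Hoxb and 1 of 5 in Hoxc. WAPL calls were 1 of 2 higher in Hoxa, 5 of 19 in Hoxb, 4 of 12 in Hoxc with 1 lower, and 3 of 6 in Hoxd. H3K27ac calls were 3 higher of 11 in Hoxa, 1 higher and 5 lower of 37 in Hoxb, 3 higher of 36 in Hoxc, and 1 higher and 1 lower of 16 in Hoxd. The shares of all regions were 22.1% higher and 18.1% lower for SMC3, 13.1% and 27.6% for WAPL, and 5.9% and 10.6% for H3K27ac, and the clusters were not tested against them. Among the genes with a region, the nearest H3K27ac region lay within 2 kb of the start for 19 of 29 and the nearest CTCF region for 18 of 29. For the other targets this held for 11 of 19 genes (RAD21), 3 of 10 (SMC3), 8 of 16 (NIPBL), 10 of 17 (WAPL) and 13 of 23 (H3K4me1). Taking only the nearest region of each gene, the log2 fold change ran from 0.29 to 2.31 for RAD21 (0 of 18 called), from -0.76 to 4.0 for SMC3 (5 of 10 higher) and from -0.38 to 1.35 for H3K27ac (5 higher and 2 lower of 29).

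Oligomycin was followed in the peak lists alone. Within the regions of each target's own table, RAD21 peaks were at 36.0% and 56.0% of the 25 Hox regions in ATPneg cells, against 8% and 12% in WT cells. The shares for all RAD21 regions were 14.8% and 13.3% in ATPneg cells, against 41.1% and 50% in WT cells. SMC3 peaks were at 61.5% and 53.8% of the 13 Hox regions in ATPneg cells, against 46.2% and 61.5% in WT cells, where the libraries overlapped. For all SMC3 regions the shares were 22.1% and 22.6% in ATPneg cells, against 40.9% and 74.4% in WT cells. NIPBL peaks were at 36.0% and 40% of the 25 Hox regions in ATPneg cells, against 64.0% and 92.0% in WT cells. WAPL peaks were at 5.13% and 10.3% of the 39 Hox regions in ATPneg cells, against 46.2% and 41.0% in WT cells.

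The mean share in ATPneg cells thus lay 36.0 percentage points above that in WT cells for RAD21 and 3.85 above for SMC3, and it lay below by 40 points for NIPBL and 35.9 for WAPL. The SMC3 difference had no stable direction, at -3.85 without WT 1 and 19.2 with stricter peaks. Over all regions of each target the mean share in ATPneg cells was lower for all 4, by 31.5 points for RAD21, 35.3 for SMC3, 47.7 for NIPBL and 54.8 for WAPL. With 2 libraries a condition an exact permutation test cannot give a two-sided p below 0.333, so none was made. The tables list only places with a peak in a KO or WT library, so ATPneg peaks at other places near Hox genes are not in these shares. This listing favours a lower share in ATPneg than in WT cells over all regions. Of the 25 RAD21 Hox regions, 21 were listed through KO peaks alone and could hold no WT peak, which favours a positive difference. Of the 25 NIPBL Hox regions, 24 were listed through WT peaks alone, which favours a negative one. The RAD21 regions with a peak in both ATPneg libraries were 8, of which 7 were CTCF sites and the other was the place downstream of Hoxb1.

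H3K27ac gave 102 Hox regions near 29 genes and H3K4me1 72 near 23, of 240561 and 180017. The median Hox region was about as long as a region in general, at 153.5 bp against 148 bp for all H3K27ac regions and 156.5 bp against 154 bp for all H3K4me1 regions. The widest H3K27ac region of any Hox gene was 515 bp and the widest H3K4me1 region 467 bp, both at Hoxc4. None of the 29 and none of the 23 genes had a region over 1000 bp. Among all genes with a region of the mark, 3.79% had one for H3K27ac and 17.5% for H3K4me1. For H3K27ac, 0 of 29 is thus near the share of all genes. The differences were not tested. The 6 ParaHox and Cdx genes, relatives and regulators of the Hox genes, had none either, with widest regions of 395 and 404 bp, both at Gsx1. For H3K27ac the Hox cofactors, the genes flanking the clusters and the stem and progenitor, myeloid, erythroid and T cell markers also had none. For H3K4me1 each of these lists had 0 to 2 genes with a region over 1000 bp.

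**Figure D5:**
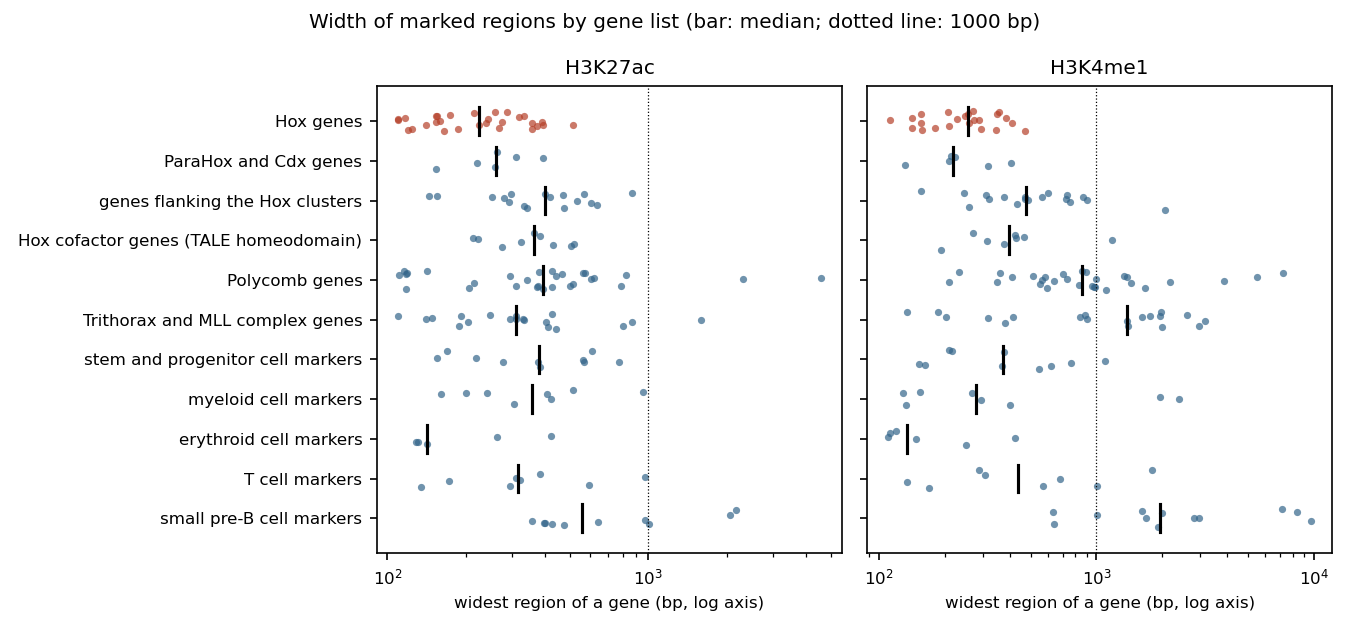
Widest H3K27ac and H3K4me1 region (bp) of each gene with a region, for Hox genes and the compared gene lists. Hox genes reach 515 bp for H3K27ac and 467 bp for H3K4me1, and the pre-B markers reach 2160 and 9710 bp.

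Few mark regions differed between KO and WT. For H3K27ac, 8 of 100 tested regions were called higher in KO cells (8%) and 6 lower (6%), against 5.9% higher and 10.6% lower among all regions, with medians of 0.05 and 0.02 on the log2 scale. For H3K4me1, 3 of 71 were called higher (4.23%) and 1 lower (1.41%), against 6.44% and 9.98%, with medians of 0.0053 and 0.0050. These shares were near those of all regions or below them. The direction depends on the scaling. With background scaling the H3K27ac calls were 5 higher and 15 lower, with medians of -0.15 for the Hox regions and -0.18 for all, and the H3K4me1 calls were 1 higher and 4 lower, with medians of -0.07 for both. With library totals they were 11 higher and 4 lower for H3K27ac, where the median of all regions was 0.13, and 5 higher and 0 lower for H3K4me1.

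A single very short place led both marks. It lay 13859 bp upstream of Hoxa13, in no gene (chr6:52224734-52224845 for H3K27ac), 112 bp long. H3K27ac there was 154.5 and 161.8 CPM in KO cells, against 130.5 and 127.5 CPM in WT cells, a log2 fold change of 0.29 ± 0.03 (adjusted p = 5.05e-15). H3K4me1 was 213.1 and 209.1 CPM in KO cells, against 170.4 and 153.2 CPM in WT cells, a log2 fold change of 0.39 ± 0.04 (adjusted p = 3.27e-21). Per kb, only 95 of the 240561 H3K27ac regions and 30 of the 180017 H3K4me1 regions held more reads. The mark tables hold no input column of this series and the other tables list no region there, so its input was not measured here.

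Of the other H3K27ac regions higher in KO cells, those upstream of Hoxc13 held 9.53 and 16.8 CPM per kb. The median over all H3K27ac regions was 8.71. They were 5471 bp upstream of Hoxc13, with 1.96 and 1.95 CPM in KO cells, against 0.916 and 0.698 CPM in WT cells (log2 fold change 1.28 ± 0.26, adjusted p = 3.69e-05), and 96014 bp upstream of the same gene, with 5.43 and 5.77 CPM in KO cells, against 3.55 and 3.74 CPM in WT cells (0.62 ± 0.14, adjusted p = 0.000253). Hoxc13, the most posterior gene of its cluster, acts in hair and nail formation. Regions near Hoxa4, Hoxa7, Hoxd3, Hoxb9 and Hoxc13 made up the other 5. The one at the Hoxd3 promoter, 198 bp upstream, held 5.01 and 5.15 CPM in KO cells, against 3.4 and 4.07 CPM in WT cells (0.44 ± 0.14, adjusted p = 0.0179), while H3K4me1 at the same promoter held 4.56 and 4.36 CPM in KO cells, against 4.99 and 5.19 CPM in WT cells (adjusted p = 0.451).

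The 6 lower H3K27ac regions all lay on places of dense input in the other tables. Hoxd1, the most anterior gene of its cluster, had one 21768 bp downstream (chr2:74622806-74623135), with 26.4 and 25.3 CPM in KO cells, against 37.5 and 37.3 CPM in WT cells, a log2 fold change of -0.53 ± 0.05 (adjusted p = 4.19e-16). The place 37668 bp downstream of Hoxb1 held 37.9 and 38.3 CPM in KO cells, against 49.20 and 49.23 CPM in WT cells (-0.37 ± 0.05, adjusted p = 3.23e-11). The region 10882 bp upstream of Hoxb13 held 15.9 and 16.3 CPM in KO cells, against 20.1 and 21.5 CPM in WT cells (-0.37 ± 0.07, adjusted p = 7.17e-06). The rest were near Hoxb13, Hoxb3 and Hoxb1. Of the 32 H3K27ac regions on dense input 2 were higher and 6 lower, and of the 70 elsewhere 6 were higher and 0 lower; the part of dense input in these calls was not tested.

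For H3K4me1 the remaining calls were small. The region 3293 bp upstream of Hoxb8 held 9.18 and 10.6 CPM in KO cells, against 7.62 and 8.23 CPM in WT cells (log2 fold change 0.31 ± 0.11, adjusted p = 0.0310), and the one 3246 bp upstream of Hoxc13 held 2.55 and 2.32 CPM in KO cells, against 1.83 and 1.31 CPM in WT cells (0.65 ± 0.24, adjusted p = 0.0371). The lower one, 6423 bp inside Hoxb3, held 6.5 and 6.22 CPM in KO cells, against 7.67 and 8.46 CPM in WT cells (-0.35 ± 0.12, adjusted p = 0.0321). DESeq2 kept none of these 3 calls.

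Genes that flank the clusters or act on them were described by the same fits. Over the whole series 22.1% of SMC3 regions were called higher and 18.1% lower, and 6.44% and 9.98% of H3K4me1 regions. At CTCF sites shared by all 4 libraries 98.1% of SMC3 regions were called higher, with a median of 3.64 on the log2 scale. Of the SMC3 regions listed through KO peaks alone, 98.7% were called higher. The gene lists below were not split by listing, so their SMC3 counts are not to be read against the shares of the series. Around the 19 genes that flank the clusters, 30 of 45 SMC3 regions were called higher in KO cells and 1 lower, and the median of the 45 was 3.37 on the log2 scale (-0.22 over all SMC3 regions). An example lay 20359 bp upstream of Calcoco1, beside the Hoxc cluster, with 21.2 and 20.6 CPM in KO cells, against 1.24 and 1.69 CPM in WT cells (log2 fold change 3.82 ± 0.24, adjusted p = 0.000571). Another was 154336 bp downstream of the Skap2 start, beside the Hoxa cluster, with 13.6 and 11.3 CPM in KO cells, against 0.849 and 0.750 CPM in WT cells (3.94 ± 0.27, adjusted p = 0.000571). H3K4me1 at the start of Hibadh, in 1 region of 2062 bp, held 5.23 and 4.88 CPM in KO cells, against 14.9 and 15.4 CPM in WT cells (-1.59 ± 0.11, adjusted p = 3.35e-40).

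The TALE homeodomain cofactors of Hox proteins had 5 of 24 SMC3 regions higher (20.8%) and 3 lower in KO cells, with a median of 0.11 on the log2 scale. Among the 31 Polycomb genes, whose proteins keep Hox genes silent, 42 of 87 SMC3 regions were higher and 1 lower (median 0.57). H3K4me1 at the start of Ezh2, the Polycomb histone methyltransferase, held 2.55 and 3.02 CPM in KO cells, against 18.6 and 19.9 CPM in WT cells (-2.79 ± 0.12, adjusted p = 1.32e-94), while 63610 bp upstream it held 106.2 and 113.6 CPM in KO cells, against 54.4 and 58.0 CPM in WT cells (0.96 ± 0.05, adjusted p = 2.63e-83). Among the 23 Trithorax and MLL complex genes, whose proteins keep Hox genes active, 15 of 37 SMC3 regions were higher and 8 lower (median 0.62). Of the ParaHox and Cdx genes' 11 SMC3 regions, 4 were higher and 0 lower (median 0.45). Pre-B markers had 12 of 31 SMC3 regions higher and 4 lower (median 0.27), and 12 of 123 H3K4me1 regions higher and 32 lower (median -0.08).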

How the data were processed

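The members and gene lists were chosen with earlier results of these data known. Counts of reads per merged region for each KO and WT library, with 1 input column per genotype for CTCF and the cohesin proteins, were deposited by the authors. The authors' input-subtracted counts were deposited as a score, and the deposited normalized signal equals that score times 1 constant per column, whose origin is not stated; it served only for the annotation in its table. The deposited peak lists hold a peak score per library. Per the submitters' processing notes, BWA, Picard, MACS2, bedtools, featureCounts and edgeR were used on build mm9; their versions are not given in the sources used here. Of the per-sample columns in the tables, 2 are inputs from elsewhere and were not used.

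Counts of all regions of a target were fitted with edgeR 4.0.16 (R 4.3.3; TMM, filterByExpr, quasi-likelihood F test, 2 KO against 2 WT libraries, Benjamini-Hochberg adjusted p under 0.05) and tested on simulated data. DESeq2 1.42.0 was an alternative. The SE is the absolute log2 fold change over the square root of F. Peaks were overlapped by at least 1 bp (bedtools 2.31.1). Named regions are the called ones with smallest adjusted p and no overlap of groups, at most 6 per target, and the densest one per cluster, plus at most 2 per list and target; a few called regions and the CTCF sites beyond that rule were named after their values were seen. Other alternatives were library totals, scaling by the 25% of regions with the lowest counts, no filter, a fit with the replicate block, a fit to the input-subtracted counts, 1 library left out at a time, peaks of at least 2 times the lowest score, and an overlap of 50%. Tables and figures were made in Python 3.11.15 with pandas 2.3.3, matplotlib 3.10.9, scipy 1.17.1 and numpy 2.4.6.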

Additional observations from a re-analysis of the deposited data

How the results depend on the processing

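With 2 libraries a group, most counts of called Hox regions moved with the library left out. The range over leaving out each library was 0 to 35 for CTCF, 0 to 16 for RAD21, 6 to 9 for SMC3, 0 to 0 for NIPBL, 0 to 21 for WAPL, 10 to 12 for H3K27ac and 1 to 5 for H3K4me1; the cause was not tested. For RAD21 the count of 1 became 16 with background scaling, 10 with DESeq2, and 0 with no filter, with input-subtracted counts and with the replicate block. For NIPBL the count of 1 became 3 with library totals, 2 with background scaling, 2 with the replicate block and 0 with input-subtracted counts. For WAPL the count of 14 became 36 with background scaling, 4 with DESeq2 and 5 with input-subtracted counts. DESeq2 gave 4 for H3K27ac and 1 for H3K4me1, and input-subtracted counts gave 2 for H3K4me1. Calls over the whole series moved as well. With DESeq2 they were 12470 for H3K27ac, against 38783 in the main fit, and 10916 for H3K4me1, against 29494. For RAD21 they were 30738 with background scaling and 14979 with DESeq2, against 19851. Background scaling moved the median log2 fold change of all regions to 0.81 for RAD21, 0.80 for WAPL, 0.20 for SMC3, 0.07 for CTCF and 0.18 for NIPBL, and library totals moved it to -0.23 for NIPBL; the Hox medians moved with it. The replicate numbers are shared only as numbers: deviations of same-numbered libraries correlated by -0.213 for CTCF and between -0.0636 and 0.0482 for the other targets, and the block changed no count beyond those given by more than 1.5 times. The crossed pairing for CTCF, added after seeing the data, gave 0 calls. The ATPneg minus WT difference in shares became, with stricter peaks, -22.0 for NIPBL, 19.2 for SMC3 and -25.6 for WAPL; leaving out 1 library gave -54.0 to -26.0 for NIPBL, 26.0 to 46.0 for RAD21, -3.85 to 11.5 for SMC3, with the sign turned without WT 1, and -38.5 to -33.3 for WAPL. Of the 12 CTCF sites, counts added after seeing the data gave 10 with stricter peaks; RAD21 peaks then lay at 5 of the 12 in KO 1, 0 in KO 2 and 4 in ATPneg 1, and with an overlap of 50% RAD21 ATPneg 1 had 4 and SMC3 KO 1 had 2. Over the 24 Hox regions named for their call, at most 6 per target, 193 of 238 alternatives kept the call, 45 lost it and 0 turned the direction; other named regions were not counted here. The 24 regions were picked for small adjusted p in these same data, so the tally is no independent support for their calls. Some of them, among them 4 SMC3 regions, were listed through KO peaks alone, which favours a direction that the alternatives could hardly turn. Depth differs by genotype for NIPBL, RAD21 and SMC3, and ATPneg depth is unknown.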
